A study of Arabidopsis thaliana and Nicotiana benthamiana and Solanum lycopersicum with 20 samples.

Results

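The gene described here is CHLH (AT5G13630 in Arabidopsis, RefSeq symbol GUN5), which encodes the H subunit of magnesium chelatase, at 1 locus in each of 5 plant species. Magnesium chelatase inserts magnesium into protoporphyrin IX, the first step that belongs to chlorophyll synthesis and not to heme synthesis. The H subunit binds the porphyrin, CHLI and CHLD form the ATP-dependent motor, and GUN4 stimulates the reaction. GOLDEN2-LIKE (GLK) proteins are transcription factors (TFs) of the GARP family that activate genes for chlorophyll synthesis and light harvesting, and most plants carry a pair of them, GLK1 and GLK2.

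The data are ChIP-seq peak lists of 20 libraries, with GLK1 and GLK2 in 2 replicates per species. They are calls of single libraries, used without the filter for reproducibility between replicates that the study applied to its targets. The loci were chosen by their measured peak values, so those values are given as a description and without a test. A summit, the base with the highest signal in a peak, counted for CHLH when it lay within 2 kb of the locus position, which is the summit in GLK1 replicate 1. In all, 34 of 480034 summits did so, 14 in Arabidopsis, 6 in tobacco, 5 in tomato, 4 in rice and 5 in maize. The lists held between 1809 and 55771 summits, and the fold change of a summit is its signal over a control that is not identified in the sources used here. The lists hold no depth for single libraries, and the study states read numbers as ranges per species.

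The libraries differ between species in more than the genome. Arabidopsis GLK1 and GLK2 carried GFP and were put into the glk1/glk2 double mutant, which lacks both proteins of its own. The tobacco (Nicotiana benthamiana) proteins carried HA and were expressed transiently by agroinfiltration in leaves. Tomato GLK1-GFP was expressed in the AC++ background and tomato GLK2-GFP in Micro-Tom, a cultivar without a working GLK2, so the TF and the cultivar cannot be told apart there. The rice proteins carried HA, were driven by the ubiquitin promoter and were expressed in Nipponbare. The maize proteins carried a biotin tag behind a 35S promoter and were expressed in leaf protoplasts of B73, although the label gives leaf. Per the study's methods, the maize data were taken from an earlier study. The study also lists the share of reads in peaks for each library, which was not used here. All the proteins were over-expressed, and the labels do not give the age of the plants. By the labels, tomato GLK1 replicate 1 was pulled down through HA and tomato GLK2 replicate 2 through both GFP and HA, and the series text gives transient expression for all species.

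Outside Arabidopsis no annotation was at hand, and the locus was linked to CHLH through the study's table of peak signals for chlorophyll genes. In each species exactly 1 shared window of the GLK1 replicates had a mean fold change equal to a CHLH entry of that table, at a relative tolerance of 1e-05, and it was the locus described here. The further entries for CHLH in the species other than Arabidopsis gave no other matching window, and they were not analysed beyond this comparison.

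In Arabidopsis the CHLH summit lay at the 5′ end of the gene and at almost the same base in every library. The gene runs from base 4392429 down to 4387307 on the minus strand of chromosome 5 (TAIR10 coordinates), with 2 annotated transcripts that start at 4392429 and 4392227. The strongest summit was at 4392371 and 4392371 in the GLK1 libraries, against 4392373 and 4392371 in the GLK2 libraries. This is in the 5′ UTR of the first exon, 58 bp inside the longer transcript, 144 bp upstream of the start of the shorter one and 289 bp upstream of the coding start at 4392082. The neighbouring gene PDAT (AT5G13640), which encodes an acyltransferase of triacylglycerol synthesis, starts at 4392937 on the other strand, 566 bp from the summit, and 507 bp separate both genes. A peak there cannot be assigned to CHLH rather than PDAT by position alone.

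The sequence at the summit is shown because the GLK proteins are known to bind words of the form AGATT or GGATT followed by CC, CT, TC or TT, and because CACGTG, the G-box, is a common element of light-regulated promoters. Both strands were searched. The lines give the CHLH strand, 5′ to 3′, from the RefSeq TAIR10.1 assembly, with the matches in capitals.
GLK word nearest the summit, chr5:4392386-4392415, minus strand, in the 5′ UTR: aaatatgaataGAAATCTcaatgagccaat
G-box, chr5:4392269-4392298, minus strand, in the 5′ UTR: taactattcgtcCACGTGtccttccctctc
CHLH upstream stretch of 300 bases that ends at the longer transcript's start, chr5:4392430-4392729, minus strand: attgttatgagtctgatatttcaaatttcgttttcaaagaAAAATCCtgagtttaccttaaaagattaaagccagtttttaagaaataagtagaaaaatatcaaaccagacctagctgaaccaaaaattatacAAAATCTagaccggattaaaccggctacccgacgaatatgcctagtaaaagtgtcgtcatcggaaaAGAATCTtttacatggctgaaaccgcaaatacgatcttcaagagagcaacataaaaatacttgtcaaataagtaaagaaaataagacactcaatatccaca

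The 150 bp window centred on the summit held 1 GLK word, AGATTTC on the plus strand, centred 30 bp from the summit towards the upstream side. Such a word was found in 26.1% and 28.3% of all windows of the GLK1 libraries, against 27.4% and 28.0% in the GLK2 libraries, and in 24.3% to 24.5% of windows 1 kb away. Among the 100 strongest windows of a library it was found in 67 or 68. A further GLK word, GGATTCT, lay at -273 bp, next to the coding start. The G-box was also on the coding side, centred at -88 bp, outside the 150 bp window and inside one of 300 bp. A G-box was in 12.1% and 11.6% of the 150 bp windows of the GLK1 libraries, against 9.49% and 9.47% in the GLK2 libraries. At 300 bp these shares were 17.1% and 16.7% for GLK1, against 14.4% and 14.4% for GLK2. In windows 1 kb away they were 2.26% to 2.38% at 150 bp and 4.48% to 4.57% at 300 bp. Of the 100 strongest windows of a library, 34 to 36 held a G-box at 150 bp and 40 to 43 at 300 bp. The upstream stretch held 3 GLK words, centred 98, 164 and 257 bp before the longer transcript's start, and no G-box. Of 27444 protein-coding genes, 43.8% had at least 1 GLK word in the 300 bases upstream, 2.87% had as many as CHLH, and 7.09% had a G-box. A match describes the letters of the window and is not evidence of binding at that word.

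The fold change at the Arabidopsis summit was 77.9 and 65.1 in the GLK1 libraries, against 47.1 and 44.9 in the GLK2 libraries. The GLK1 values were both above the GLK2 values, and the mean was 71.5 ± 9.08 for GLK1 against 46.0 ± 1.53 for GLK2 (SD, n = 2 each). By fold change the summit ranked 25th and 25th of 15576 and 13934 summits for GLK1, against 26th and 25th of 22900 and 22143 for GLK2. Its rank was thus nearly the same in all 4 libraries, in lists of different length.

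**Figure D1:**
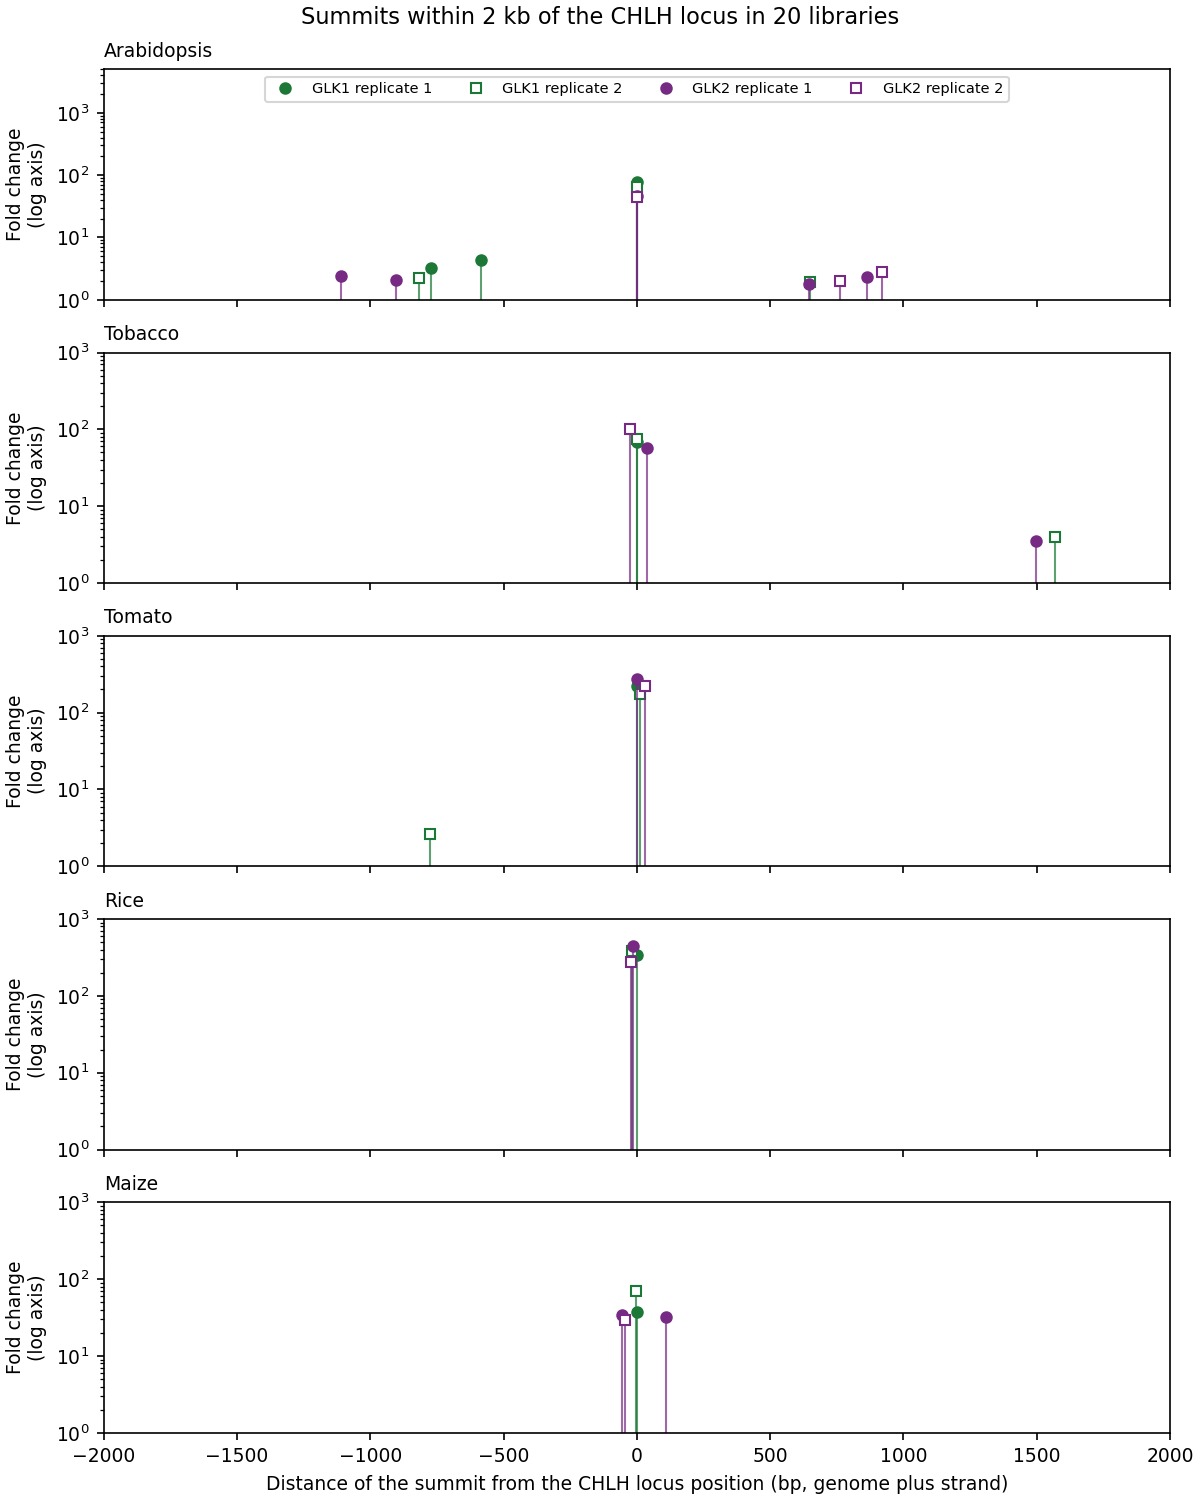
Each panel gives 1 species, with the distance of every summit within 2 kb from the locus position on the x axis (bp, plus strand to the right) and its fold change on a log y axis; filled circles are replicate 1, open squares replicate 2, green GLK1 and purple GLK2. Arabidopsis has weak summits from -1110 to 918 bp, rice has 4 summits alone, and maize GLK2 replicate 1 has a pair of about equal height.

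Around the strong Arabidopsis summit there were 10 weaker ones, with fold changes of 1.82 to 4.37. GLK1 had 3 and 3 summits within 2 kb, against 5 and 3 for GLK2, and in each library all of them belonged to 1 peak region. Those on the CHLH side lay at -1110 to -583 bp on the plus strand, in the coding part of its first exon, and those on the other side at 646 to 918 bp, in the first exon of PDAT. No weaker summit recurred in all 4 libraries. The strongest summit was 17.8 and 29.2 times as high as the next in the GLK1 libraries, against 19.4 and 16.3 times in the GLK2 libraries. Having as many summits within 2 kb was common in Arabidopsis, at 45.5% and 43.8% of all summits for GLK1 against 22.8% and 54.4% for GLK2.

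In tobacco the locus was at Niben251Chr05 56642664. The GLK1 libraries had fold changes of 68.8 and 76.0 there, against 57.0 and 100.5 in the GLK2 libraries, so that the GLK1 values fell between the GLK2 values. The ranks were 273 of 22032 and 272 of 21383 for GLK1, against 408 of 33237 and 246 of 47178 for GLK2. The GLK1 summits were 1 bp apart, and the GLK2 summits 65 bp apart, on either side of them. A second and weak summit lay 1567 bp away in GLK1 replicate 2 (fold change 3.93) and 1499 bp away in GLK2 replicate 1 (3.47).

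In tomato the locus was at SL4.0ch04 6071332. The GLK1 libraries had fold changes of 221 and 174, against 277 and 224 in the GLK2 libraries, so that both GLK1 values were below both GLK2 values, although 221 and 224 were close. The ranks were 79 of 55028 and 78 of 38527 for GLK1, against 81 of 55771 and 137 of 53600 for GLK2. The 4 summits spanned 29 bp. The only other summit within 2 kb was in GLK1 replicate 2, at -776 bp, with a fold change of 2.65. A summit with no other within 2 kb was uncommon in tomato, at 22.0% and 28.2% of the GLK1 summits against 20.1% and 20.9% of the GLK2 summits.

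Rice had CHLH nearest to the top of its lists, at chromosome 3 11712062. Its fold change was 340 and 378 for GLK1, against 443 and 278 for GLK2, and the ranks were 3 and 2 against 2 and 2. The summit above it in all 4 libraries was on chromosome 3 near 28686726, with fold changes of 746 and 725 for GLK1 against 844 and 595 for GLK2. No gene was assigned to it here. The CHLH summit stood alone, with the nearest other summit at least 18103 bp away in every library. Standing alone within 2 kb was common in rice, at 45.6% and 53.7% of the GLK1 summits against 70.0% and 86.1% of the GLK2 summits. The share of summits as far from any other as CHLH was not counted. The rice lists differed in length, with 23003 and 14656 summits for GLK1 against 6168 and 1809 for GLK2, and the rank of CHLH was the same in the longest and the shortest to within 1 place.

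Maize had the weakest CHLH summit relative to its lists, at chromosome 10 148764476 (B73 RefGen_v4). GLK1 had 37.6 and 70.9 as fold changes, against 34.1 and 29.6 for GLK2. The GLK1 values were both above the GLK2 values, but GLK1 replicate 1 was nearer to the GLK2 libraries than to its own replicate. The ranks were 541 of 7246 and 65 of 5224 for GLK1, against 893 of 13841 and 360 of 6778 for GLK2. Without the organelle sequences the ranks were 378 of 6576 and 64 of 4604 for GLK1, against 893 of 13810 and 360 of 6775 for GLK2. The replicates of GLK1 disagreed more at CHLH than at most windows. There the log2 ratio of replicate 1 over replicate 2 was -0.92, against a median of 0.40 over 3364 GLK1 windows, and 2.32% of these windows had a lower ratio.

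**Figure D2:**
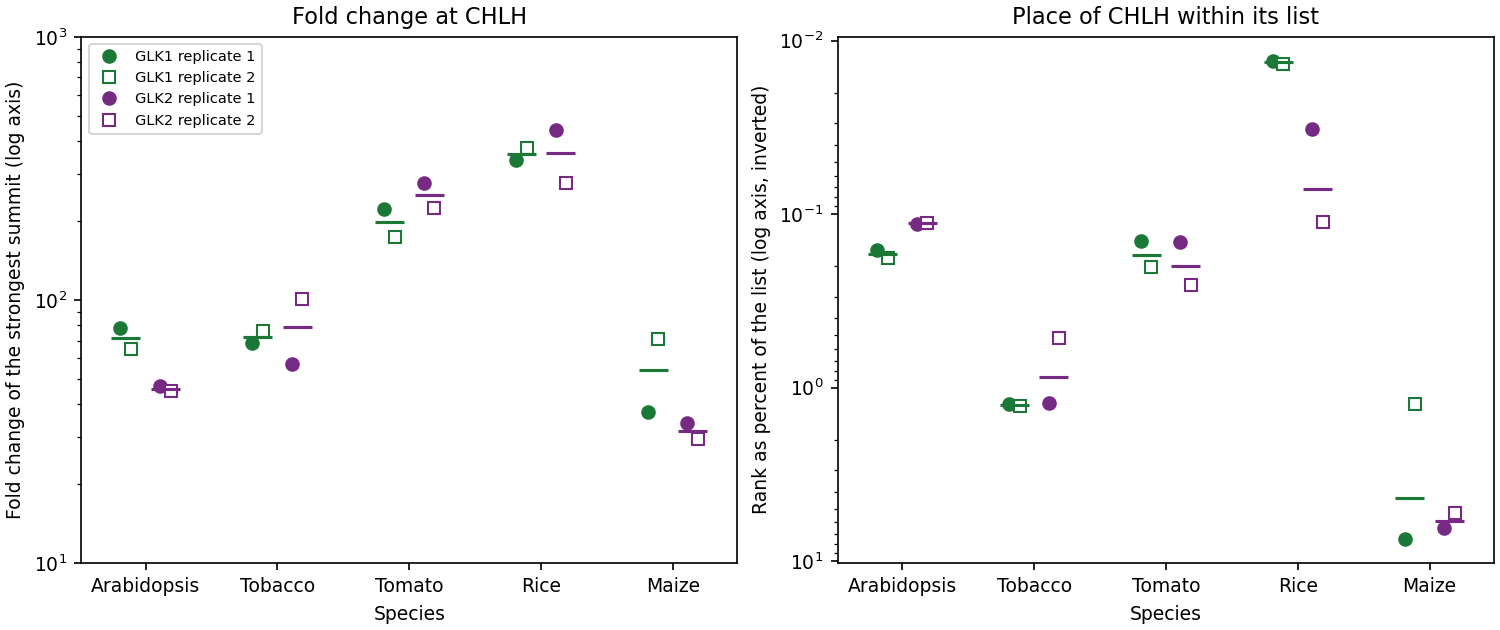
The left panel plots the fold change of the strongest CHLH summit in each library on a log axis, and the right panel its rank as a percent of the list on an inverted log axis, so that the top of the list is up; bars are the mean of 2 replicates. Rice and tomato have the highest fold changes, and the maize libraries sit lowest in both panels apart from GLK1 replicate 2.

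Because each list was made alone, CHLH was also placed within its list. CHLH was within the top 1% of summits in 13 of 20 libraries and within the top 10% in all 20. Over the 4 libraries of a species its rank was 0.0130% to 0.111% of the list in rice, 0.113% to 0.179% in Arabidopsis, 0.144% to 0.256% in tomato, 0.521% to 1.27% in tobacco and 1.24% to 7.47% in maize. The ranges of Arabidopsis and tomato overlapped, as did those of tobacco and maize. Rice and Arabidopsis were separated by less than their own spread, and tomato and tobacco by less than the spread of tobacco. The tobacco value nearest to tomato was that of GLK2 replicate 2, the longest tobacco list. Relative to the median fold change of the list, CHLH was 51.9 to 90.8 times as high in rice, 38.3 to 54.7 times in tomato, 17.9 to 25.6 times in Arabidopsis, 9.11 to 16.0 times in tobacco and 4.01 to 10.1 times in maize. By this measure tomato came before Arabidopsis with no overlap, rice and tomato overlapped, and tobacco and maize again overlapped.

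To set GLK1 against GLK2, the log2 fold change at CHLH was compared with that at all windows found in all 4 libraries of a species. GLK1 was higher at CHLH in Arabidopsis, by 0.63 on the log2 scale (pooled replicate SD 0.134), where 27.1% of 8827 shared windows had both GLK1 values above both GLK2 values. It was higher in maize as well, by 0.70 (SD 0.469), where 13.3% of 2143 windows were higher in that way. It was lower in tomato, with a difference of -0.35 (SD 0.232), as were 40.2% of 20707 windows. The values overlapped in tobacco, with a difference of -0.07 (SD 0.416), where GLK1 was higher at 20.3% and lower at 35.7% of 10811 windows, and in rice, with 0.03 (SD 0.345), where it was higher at 15.1% and lower at 17% of 1046 windows. Against these shares, the CHLH result was shared with many windows in tomato and Arabidopsis and with fewer in maize.

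The median difference over all shared windows was 0.02 in Arabidopsis, -0.15 in tobacco, -0.22 in tomato, -0.01 in rice and -0.39 in maize. CHLH lay above 93.2% of the windows in Arabidopsis, 55.5% in tobacco, 42.9% in tomato, 53.4% in rice and 85.9% in maize. The Arabidopsis value was however close to that of other strong windows. The 100 strongest shared nuclear windows of Arabidopsis, a comparison added after the data were seen, had a median difference of 0.54, with GLK1 higher at 65 and lower at 9 of them. In tomato these 100 windows had a median of -0.45, with GLK1 higher at 6 and lower at 72, and in maize a median of 0.40, with GLK1 higher at 35 and lower at 17. In tobacco the median was 0.26, with GLK1 higher at 48 and lower at 17, and in rice it was 0.12, with 16 and 11. CHLH lay above 56% of the 100 windows in Arabidopsis, 28% in tobacco, 58% in tomato, 42% in rice and 62% in maize. The CHLH window was among the 100 in Arabidopsis, tomato and rice. It was not among them in tobacco and maize, where it ranked 238th and 160th of the shared windows. A percentile of rank within each list moves with the length of the list, so a difference between GLK1 and GLK2 in it cannot be told apart from list length. In Arabidopsis CHLH stood at 0.161% and 0.179% of the list from the top for GLK1, against 0.114% and 0.113% for GLK2, with ranks of 25 and 25 against 26 and 25. In rice it stood at 0.0130% and 0.0136% for GLK1, against 0.0324% and 0.111% for GLK2, with ranks of 3 and 2 against 2 and 2. In tobacco it stood at 1.24% and 1.27% for GLK1, against 1.23% and 0.521% for GLK2, so that the GLK1 values were further from the top, whereas the fold changes overlapped. In tomato and maize the percentiles of GLK1 and GLK2 overlapped. The background by percentile was 12.4% of windows higher and 48.3% lower for GLK1 in Arabidopsis, 28.2% and 29.1% in tomato, 52.7% and 2.199% in rice, 15.6% and 42.0% in tobacco, and 12.4% and 43.8% in maize. By fold change the maize call ended when both summits of GLK2 replicate 1 were summed, which left a difference of 0.23.

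**Figure D3:**
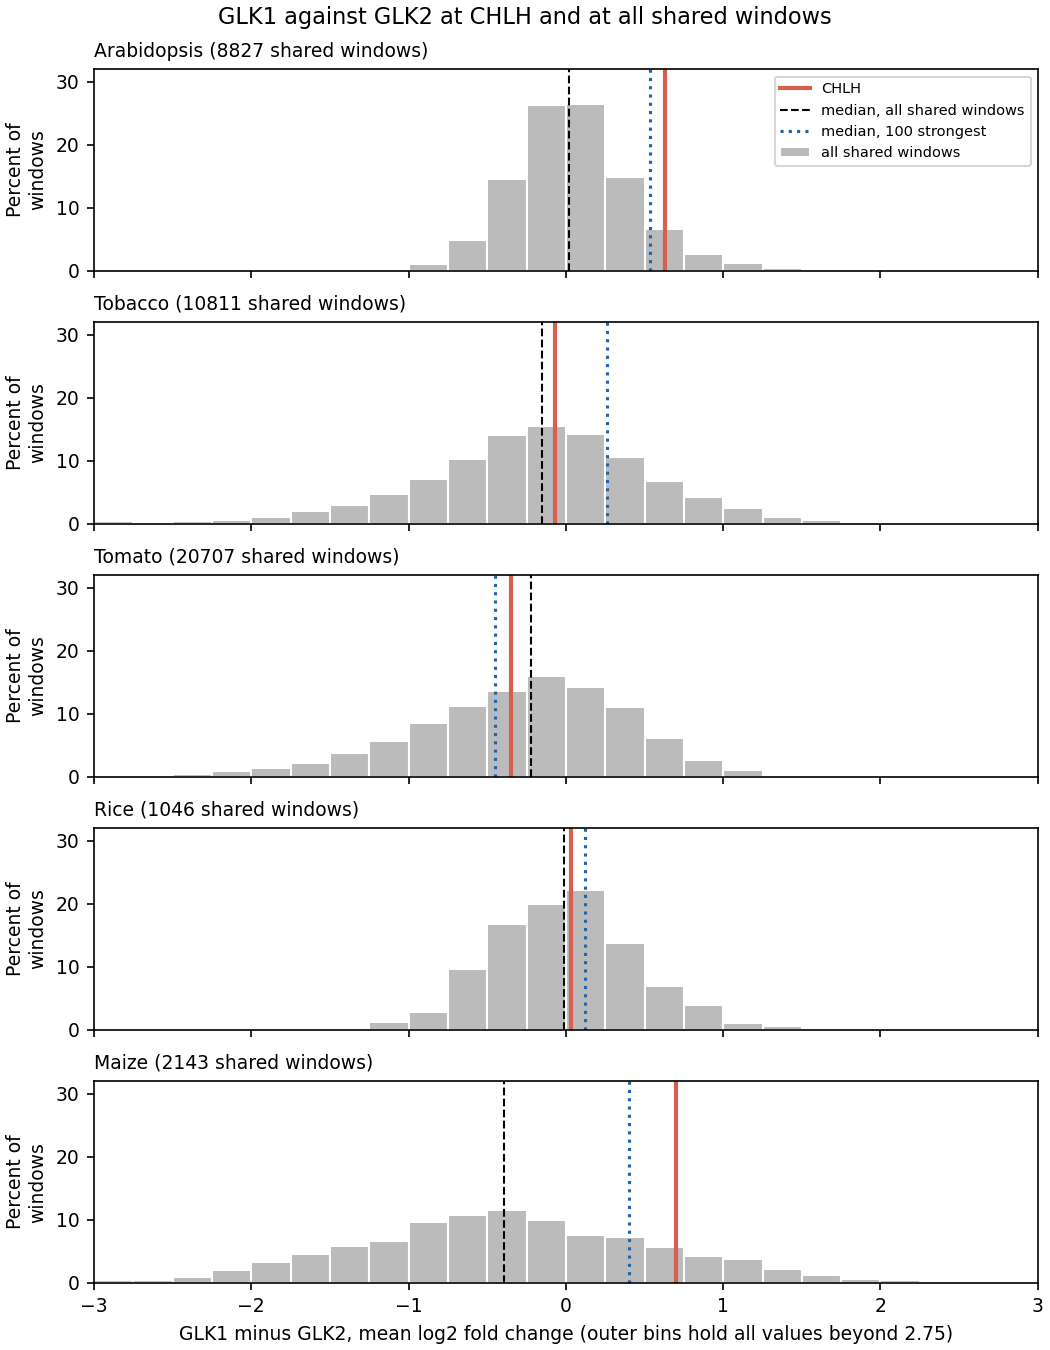
The histograms give the GLK1 minus GLK2 difference of the mean log2 fold change (x axis) over all windows found in the 4 libraries of a species (y axis, percent of windows), with CHLH as the red line, the median of all windows dashed and that of the 100 strongest dotted. CHLH is to the right of 93.2% of windows in Arabidopsis and close to the dotted line at 0.54.

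The position of the summit was compared in the same way. The strongest summits of the 4 libraries spanned 2 bp in Arabidopsis, 65 bp in tobacco, 29 bp in tomato, 21 bp in rice and 54 bp in maize. The median span over all shared windows was 81 bp in Arabidopsis, 88 bp in tobacco, 78 bp in tomato, 108.5 bp in rice and 104 bp in maize. In Arabidopsis 3 of 8827 windows, CHLH itself included, had a span as small as 2 bp, and none had a smaller one. Among the 100 strongest windows, whose median span was 14.5 bp, 2 had one as small, again with CHLH included. In tobacco and tomato the 100 strongest windows had median spans of 27 and 13 bp, and 92 and 88 of them had one no larger than CHLH. The CHLH span was thus wider than that of most strong windows in these species. In rice and maize the medians were 36 and 65 bp, with 32 and 40 such windows. Only in maize were GLK1 and GLK2 further apart than their replicates. The maize GLK1 summits were 5 bp apart and the GLK2 summits 10 bp apart, and every GLK1 summit was 39 to 54 bp to the right of every GLK2 summit. Of all shared maize windows 16.2% were separated in this way, and 8.79% in Arabidopsis, 18.7% in tobacco, 13.3% in tomato and 14.1% in rice. Maize GLK2 replicate 1 also had its second summit 162 bp to the right of its first, in the same peak region and with a fold change of 31.8 against 34.1, so that the GLK1 summits lay between the pair.

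The other genes of the chlorophyll pathway were examined in Arabidopsis, from 1.5 kb upstream to 0.5 kb downstream of the gene start. The list of 16 genes besides CHLH was chosen by function. Of these, 9 had a summit in all 4 libraries, 7 in 1 to 3 libraries and 0 in none. With the 1.5 kb upstream alone, which leaves out the CHLH summit itself, 6 had a summit in all 4 libraries. With the 0.5 kb downstream included, 6313 of 27444 genes (23.0%) had one in all 4 libraries. By mean log2 fold change CHLH was 27th among them. The share of all genes was not counted for 1 to 3 libraries, for none or for the upstream stretch alone, so those counts have no background here. Of the list, HEMA1 had values nearest to those of CHLH. It encodes the glutamyl-tRNA reductase that starts the supply of 5-aminolevulinic acid, and had 75.5 and 71.0 for GLK1 against 46.9 and 40.5 for GLK2.

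The partners of CHLH in the enzyme looked different from it. CHLI1 was listed in the GLK2 libraries only, at 3.50 and 4.80. CHLI2 had 2.91 and 3.55 there, and CHLD, the third kind of subunit, had 2.85 and 2.07. None of these 3 genes had a summit in a GLK1 list, which says that no peak was called, not that the protein was absent. The GLK2 lists were longer, with 22900 and 22143 summits against 15576 and 13934 for GLK1. Their median fold changes were 2.56 and 2.51, and of these values only that of CHLD in GLK2 replicate 2 was below the median. By rank in the GLK2 lists CHLI1 was at 5286 and 1986, CHLI2 at 8480 and 4549, and CHLD at 8912 and 16462. The share of all genes with a summit in GLK2 lists alone was not counted, so the pattern is not shown to be particular to these genes. GUN4, the activator of the enzyme, had 26.3 and 31.7 in the GLK1 libraries against 33.6 and 36.6 in the GLK2 libraries.

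Among the later steps, CHLM, the methyltransferase that acts on magnesium protoporphyrin IX, had 29.8 and 24.5 for GLK1 against 37.7 and 38.8 for GLK2. CRD1, a subunit of the cyclase that follows, had 28.7 and 29.4 against 35.9 and 31.5. The protochlorophyllide oxidoreductases, which carry out the light-dependent step, differed among themselves. PORB had 49.8 and 45.9 for GLK1 against 49.1 and 47.0 for GLK2, PORC had 24.6 and 17.2 against 26.2 and 20.2, and PORA had 6.45 and 8.25 against 14.4 and 11.5. CAO, which makes chlorophyll b, had 43.8 and 43.5 for GLK1 against 33.1 and 34.3 for GLK2. The divinyl reductase gene DVR had 2.48 and 2.62 in the GLK2 libraries, and the chlorophyll synthase gene CHLG had 2.14 in GLK2 replicate 1 alone.

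Of the genes on other branches, the ferrochelatase gene FC1, on the way to heme, had 2.73 and 2.33 for GLK1 against 6.78 and 5.21 for GLK2, more than 1 kb upstream of its start. Its relative FC2 had 2.38 in GLK1 replicate 2, against 2.26 and 2.43 in the GLK2 libraries. These were different sites, at -1427 bp from its start for GLK1 and at -1097 and -1076 bp for GLK2. FLU, a repressor of 5-aminolevulinic acid synthesis, had 1.81 in GLK2 replicate 2 alone. Of the 9 genes listed in all 4 libraries, CAO and HEMA1 had, like CHLH itself, both GLK1 values above both GLK2 values. GUN4, CHLM, CRD1, PORA and FC1 had both below, and PORB and PORC overlapped. Among all 6313 genes, 26.7% were higher and 23% lower in that way. The median difference was -0.21 over the 9 genes and 0.01 over all 6313.

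**Figure D4:**
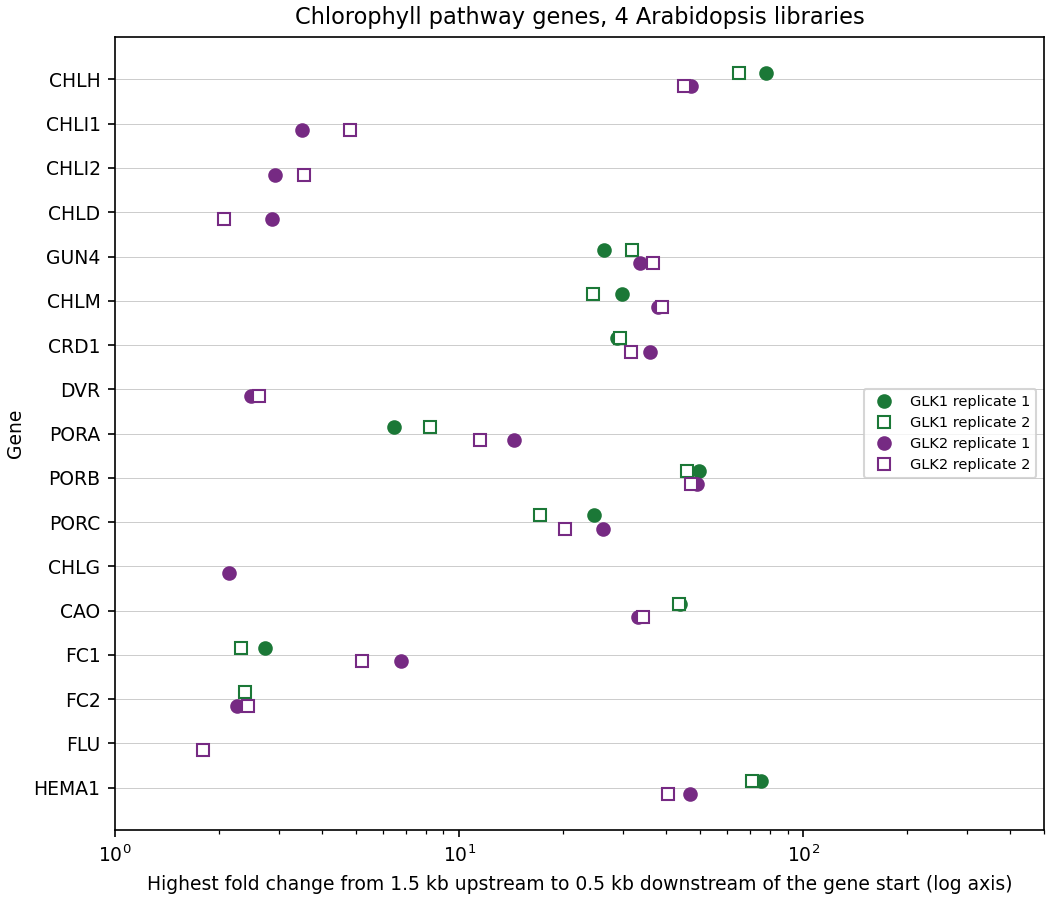
Each row is a gene of the chlorophyll pathway, and the points give its highest fold change near the gene start in the 4 Arabidopsis libraries on a log axis, with no point where no summit was called. CHLH and HEMA1 reach the highest GLK1 values, with GLK1 to the right of GLK2, and CHLI1, CHLI2 and CHLD have GLK2 points only, between 2.07 and 4.80.

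The Arabidopsis genes whose 4 values were most like those of CHLH, by Euclidean distance of the log2 fold changes over the 4 libraries, began with PDAT at a distance of 0, since it shares the summits. Next were LHCB3 (AT5G54270) at 0.195, HEMA1 at 0.199, and LHCB6 (AT1G15820) with its neighbour AT1G15830, which share their summits, at 0.248. LHCB3 and LHCB6 encode chlorophyll a/b-binding proteins of the photosystem II antenna. LHCB3 had 77.7 and 61.9 for GLK1 against 53.0 and 46.9 for GLK2. LHCB6 had 81.8 and 76.7 for GLK1 against 47.3 and 45.0 for GLK2. In all 3 of LHCB3, LHCB6 and HEMA1 the summits lay downstream of the annotated start, as at CHLH, by 13 to 140 bp.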

How the data were processed

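The libraries were ChIP-seq samples of tagged GLK1 and GLK2, grouped by the species, TF and replicate in the labels. Per the study's methods, the authors used Bowtie2 2.3.2 for mapping, SAMtools to drop duplicate and poorly mapped reads, and MACS2 2.2.1 to call peaks in every library by itself. Each line of the deposited lists is a 150 bp window around 1 summit, with the authors' fold change over the control (a ratio), used here for levels and ranks. For its target genes the study kept only summits that passed cut-offs for reproducibility between replicates (IDR) and for fold change. No such filter was applied here. Weak summits, and the 6313 Arabidopsis genes with a summit in all 4 libraries, are thus not peaks or targets by the study's standard. The deposited −log10 p was not used, the deposited −log10 q served as an alternative, and the deposited score column was not used. No read was mapped here, and list lengths may follow depth, which the study states as a range for each species and not by library.

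Windows of 4 libraries that share 1 bp or more were merged into shared windows, and the highest fold change per library was kept. This step was checked on simulated lists made from Arabidopsis GLK1 replicate 1 after closely spaced summits were removed. The merging of neighbouring summits was thus not checked. The loci and gene lists were chosen with earlier results of these data known. Named were CHLH, the pathway list, genes within 2 kb and the 5 genes most like CHLH. Genes and sequences came from RefSeq (TAIR10.1). No test was run. Computations used Python 3.11.15, numpy 2.4.6, pandas 2.3.3 and matplotlib 3.10.9.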

Additional observations from a re-analysis of the deposited data

Results flagged for a closer look

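The GLK1 minus GLK2 difference at CHLH went opposite ways in different species, with both libraries of each TF on their own side. The difference on the log2 scale was 0.98 larger in Arabidopsis than in tomato, and 1.05 larger in maize than in tomato. Neither contrast was tested, since each species has 2 libraries of each TF and its own tag, host and scaling. The median difference over all shared windows was 0.02 in Arabidopsis, -0.39 in maize and -0.22 in tomato, and their part in the contrast was not tested. After subtracting the median of the 100 strongest shared windows, an alternative added after the data were seen, the difference was 0.10 in Arabidopsis, 0.30 in maize and 0.11 in tomato, so that the directions were no longer opposite. The maize CHLH window was not itself among those 100 windows, unlike that of Arabidopsis and tomato.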

How the results depend on the processing

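No paired analysis was possible because the results come from no test. The study gives depth only as a range per species, so in a single library a missing peak cannot be told from low depth, and the control behind the fold changes is not identified. The cause of the changes below was not tested.

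The number of CHLH summits in Arabidopsis was 4 in place of 14 when summits had to reach 5 both in fold change and in −log10 q, and also 4 with 1 summit per peak region. Within 5 kb it was 10 in place of 6 in tobacco and 15 in place of 5 in tomato. The mean rank of CHLH in Arabidopsis was 0.142% of the list by fold change, 0.188% by −log10 q and 0.206% among peak regions, and in tomato 0.187% by fold change and 0.242% among peak regions. Of the other alternatives for the count, 16 kept it within 1.5 times, and 17 of those for the rank moved it by less than the spread of the 4 libraries.

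The GLK1 minus GLK2 difference in Arabidopsis was 0.30 as log2 of the −log10 q, and 0.10 after subtracting the median of the 100 strongest shared windows, which was added after the data were seen. This subtraction reversed the difference in tomato, to 0.11, against -0.35 without it. In rice it was 0.74 as log2 of the −log10 q, and in maize 0.23 with all summits within 2 kb summed. With the rank percentile in place of the fold change, GLK1 was above GLK2 at 12.4% and below it at 48.3% of the shared windows in Arabidopsis, above it at 28.2% in tomato, and above it at 52.7% and below it at 2.199% in rice. A G-box was within the window of CHLH in 0 of 4 libraries at 150 bp and in 4 at 300 bp. Of all 300 bp windows, 17.1% and 16.7% held one in the GLK1 libraries, against 14.4% and 14.4% in the GLK2 libraries.

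Leaving out each library in turn gave a mean rank of 0.129% to 0.151% in Arabidopsis, 0.996% to 1.25% in tobacco, 0.164% to 0.201% in tomato, 0.0197% to 0.0522% in rice, with 0.0197% without GLK2 replicate 2, and 4.34% to 6.41% in maize. The difference ranged over 0.50 to 0.76 in Arabidopsis, -0.48 to 0.34 in tobacco, -0.52 to -0.17 in tomato, -0.30 to 0.37 in rice and 0.24 to 1.16 in maize. It changed sign in tobacco without GLK2 replicate 2 (0.34) and without GLK1 replicate 1 (0.0058), and in rice without GLK2 replicate 2 (-0.30) and without GLK1 replicate 2 (-0.04). In maize it was 0.24 without GLK1 replicate 2 and 1.16 without GLK1 replicate 1, and in tomato -0.52 without GLK1 replicate 1, -0.17 without GLK1 replicate 2, -0.19 without GLK2 replicate 1 and -0.50 without GLK2 replicate 2.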

Other observations

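As a share of the highest fold change in the same list, CHLH reached 45.6% and 52.2% in the rice GLK1 libraries, against 52.5% and 46.7% in the rice GLK2 libraries. It reached 37.1% and 35.9% for GLK1 against 50.3% and 50.7% for GLK2 in Arabidopsis. In maize it reached 0.619% and 1.23% for GLK1, against 0.291% and 1.03% for GLK2. The highest maize summit of a list had a fold change between 2868 and 11725. The highest values were taken over whole lists, organelle sequences included, and shares of the highest nuclear summit were not computed.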
